A study of Homo sapiens with 30 samples.

Results

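The carbonic anhydrase genes CA2, CA9, CA12 and CA13 were followed through 3 human cancer lines grown at pH 6.5 or pH 7.4. They were picked by name from a table of 38122 genes, so they are 4 genes of that table, and all 4 were found in it by their Ensembl identifiers (CA2, ENSG00000104267; CA9, ENSG00000107159; CA12, ENSG00000074410; CA13, ENSG00000185015). Carbonic anhydrases are zinc enzymes that turn carbon dioxide and water into bicarbonate and a proton, and back again. The form made decides where this happens: CA2 and CA13 are soluble enzymes of the cytosol, CA2 being one of the fastest enzymes known, while CA9 and CA12 span the plasma membrane with the catalytic domain facing outwards. CA9 is a well-known target of the hypoxia-inducible factors and is widely used as a tumour marker of low oxygen, and CA12 is induced by the oestrogen receptor in breast cells.

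RNA was sequenced from FaDu, a squamous carcinoma line of the pharynx, from HCT116, a colon carcinoma line, and from SiHa, a cervical squamous carcinoma line. Cells of the pH 6.5 groups had lived in acidified medium for 1 month or longer, and the pH 7.4 groups were the control. All groups shared the same medium, with 10 mM glucose, 2 mM glutamine, 10% serum, antibiotics and both HEPES and PIPES at 25 mM, at 37 °C and 5% CO2. The groups were FaDu at pH 6.5 and at pH 7.4, HCT116 at pH 6.5 and at pH 7.4, and SiHa at pH 6.5 and at pH 7.4, with 5 libraries each and 30 in all. Nothing in the labels says whether the libraries of a group were separate cultures, or whether the cells at pH 6.5 were adapted more than once, so p-values measure only the spread between these libraries, which may be technical. In bulk RNA, fewer cells that use a gene and less RNA of it per cell cannot be told apart.

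Libraries held 21.0 to 55.7 M reads, and a count of 0 allows up to 3 reads, which is 1.90 to 5.01 normalised counts depending on the library. Of the 30 libraries, 9 were set apart. The FaDu pH 7.4 libraries 2 to 5 held 33 HCT116-restricted genes at a median of 30.6% to 80.4% of the level in HCT116. The HCT116 pH 6.5 libraries 5, 6 and 7 held 28 SiHa-restricted genes at a median of 37.5%, 101% and 104% of the level in SiHa. SiHa pH 7.4 libraries 6 and 7 held VIM, a mesenchymal filament gene, at 2817 and 2863, against at most 165 in the other SiHa libraries. This left 5 libraries against 1 in FaDu, 2 against 5 in HCT116 and 5 against 3 in SiHa, and results are given for these unless stated, with the values of the others beside those of the 4 genes. Of the marker genes of squamous epithelium, all 8 averaged at least 10 in FaDu, and KRT13 was at 0 in every SiHa library. The kept SiHa libraries held PKP1 at 294 to 1906, but DSG3 at most 6.63, TP63 at most 58.7 and KRT5 at most 87.6. HCT116 at pH 6.5 held KRT5 at 721 to 897. Of the colon markers, HCT116 held CDX2 and KRT20, and CDX1 was at 0 in the HCT116 libraries kept. VIL1 was at most 104 there, CDH17 13.1, GPA33 12.6 and LGALS4 12.5. LGALS4 reached 22.7 in kept FaDu and 17.5 in kept SiHa libraries.

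The promoters of the surface enzymes are shown because CA9 is the classic gene switched on through the hypoxia response element, whose core is read as ACGTG or GCGTG. Each line gives the 250 bases before the start of the gene in RefSeq, 5′ to 3′ on the strand of the gene, and capitals mark a match to either motif on either strand. The CA9 promoter lies at chr9:35673678-35673927 on the plus strand and the CA12 promoter at chr15:63381847-63382096 on the minus strand, both in GRCh38.p14.
CA9: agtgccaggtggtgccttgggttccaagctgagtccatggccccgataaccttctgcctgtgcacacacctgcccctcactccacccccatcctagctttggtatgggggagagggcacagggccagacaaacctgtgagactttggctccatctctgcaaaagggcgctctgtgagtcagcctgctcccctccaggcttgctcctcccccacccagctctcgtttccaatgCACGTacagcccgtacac
CA12: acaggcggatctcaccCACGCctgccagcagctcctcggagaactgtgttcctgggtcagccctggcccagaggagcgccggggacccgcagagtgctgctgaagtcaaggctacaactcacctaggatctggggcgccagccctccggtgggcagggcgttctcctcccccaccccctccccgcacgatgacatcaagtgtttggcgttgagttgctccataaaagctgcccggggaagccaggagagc
In the CA9 promoter, ACGTG was matched 1 time, on the opposite strand, at 18 to 14 bases before the start, and GCGTG was not matched. In the CA12 promoter, GCGTG was matched 1 time, on the opposite strand, at 234 to 230 bases before the start, and ACGTG was not matched. Of 35116 promoters of the same length, 18.5% held ACGTG and 32.2% held GCGTG on either strand, so a match is a description of these letters and not a binding site.

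The lines differed in which carbonic anhydrase they used, and the levels are given first as normalised counts, gene by gene. CA2 was highest in FaDu, at 1860.1 ± 198 at pH 6.5 (SD, n = 5) and 1505 in the 1 library at pH 7.4. HCT116 followed, at 1432 ± 80.2 at pH 6.5 (n = 2) and 877 ± 208 at pH 7.4 (n = 5), and SiHa was lowest, at 15.5 ± 12.6 at pH 6.5 (n = 5) and 112 ± 25.6 at pH 7.4 (n = 3). No 2 neighbours in this order of 6 groups overlapped. CA13 was highest in HCT116, at 368 ± 8.96 at pH 6.5 and 417 ± 52.0 at pH 7.4, with overlapping ranges. The other CA13 groups were lower and averaged 68.4 ± 32.7 at pH 6.5 and 161 at pH 7.4 in FaDu, and 91.4 ± 26.7 at pH 6.5 and 126 ± 13.9 at pH 7.4 in SiHa. CA12 ran the other way from CA2 at pH 6.5, with SiHa first and FaDu last. It stood in SiHa at pH 6.5 at 633 ± 224, against 105 ± 28.1 in SiHa at pH 7.4. HCT116 held CA12 at 323 ± 63.8 at pH 6.5 and 161 ± 40.4 at pH 7.4, and FaDu at 9.17 ± 5.40 at pH 6.5 and 6.59 at pH 7.4. The pH 7.4 groups of HCT116 and SiHa overlapped for CA12, and so did both FaDu groups. CA9, the hypoxia marker, was low everywhere: its 21 kept libraries ranged between 2.56 and 66.5, which is 2 to 58 reads, and the group means between 3.47 in SiHa at pH 6.5 and 45.0 in the FaDu library at pH 7.4.

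**Figure D1:**
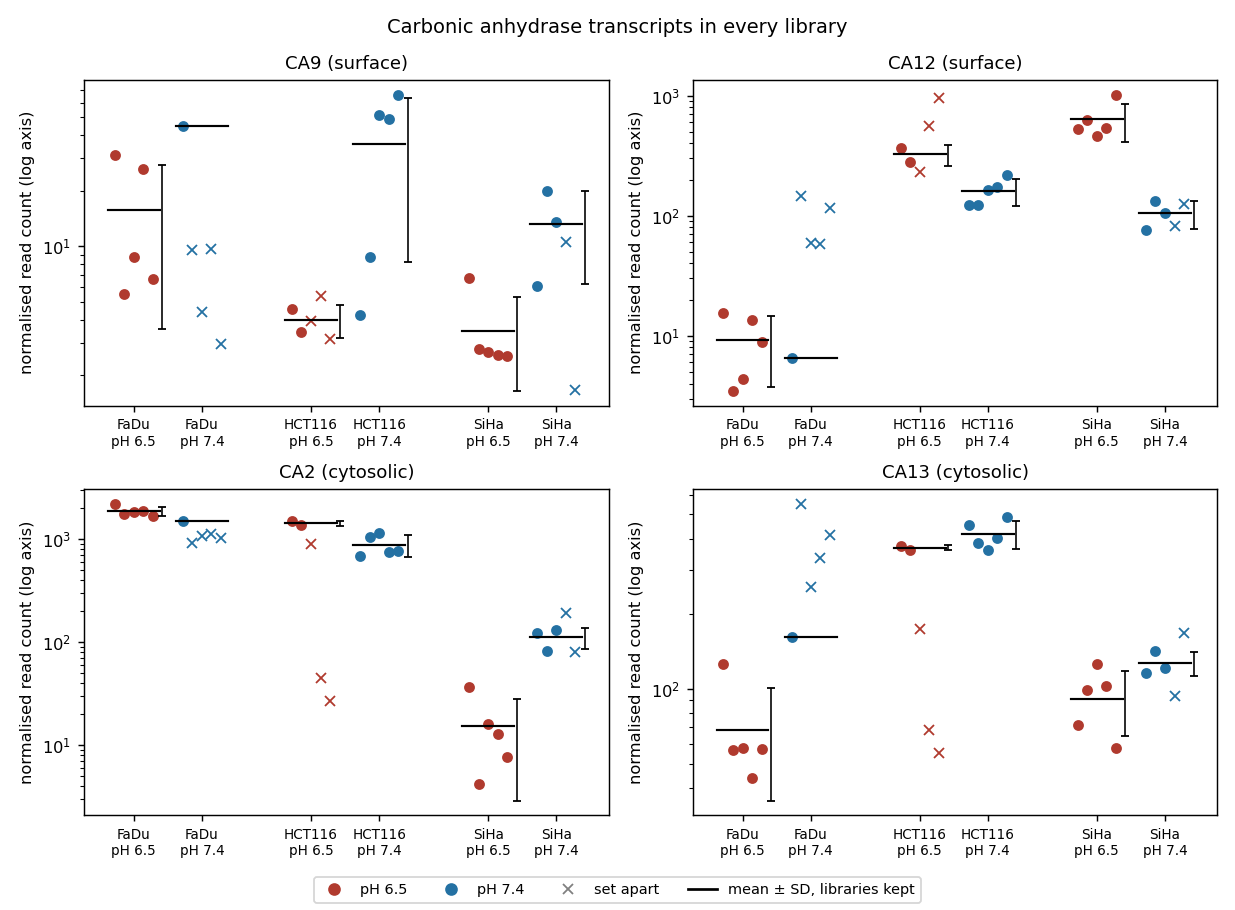
Normalised read counts (log axis) of CA9, CA12, CA2 and CA13 in each of the 30 libraries, by line and pH, with dots for the 21 libraries kept, crosses for the 9 set apart, and lines and bars for the mean ± SD of the libraries kept. In SiHa the 5 dots at pH 6.5 lie above all 3 at pH 7.4 for CA12 and below them for CA2; for CA9 the HCT116 dots at pH 7.4 split into 2 low and 3 high.

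Levels of different genes were compared per kb of exon, since CA12 has 6.41 kb of annotated exon, CA13 3.81 kb, CA2 1.72 kb and CA9 1.62 kb. In FaDu at pH 6.5, CA2 stood at 1083 normalised counts per kb, CA13 at 17.9, CA9 at 9.67 and CA12 at 1.43. In HCT116 at pH 6.5, CA2 stood at 834 per kb, CA13 at 96.4, CA12 at 50.4 and CA9 at 2.47. CA2 thus led in both of these lines and at both pH values, with 876 per kb in FaDu at pH 7.4 and 511 in HCT116 at pH 7.4. SiHa at pH 6.5 had another order, with CA12 at 98.7 per kb, CA13 at 24.0, CA2 at 9.01 and CA9 at 2.15. At pH 7.4 SiHa held CA2 at 65.1 per kb, CA13 at 33.1, CA12 at 16.4 and CA9 at 8.15.

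SiHa carried the largest called changes of CA2 and CA12. In its pH 6.5 cells the membrane enzyme CA12 rose and the cytosolic enzyme CA2 fell, so that CA12 replaced CA2 as the highest of the 4 genes per kb. CA9 also passed the test as lower at pH 6.5, on few reads, and CA13 did not pass. Of the 4 genes, all were tested (mean of at least 10 normalised counts in the higher group), 1 was called higher and 2 lower, at an adjusted p under 0.05; over all 18555 genes tested in SiHa 31.2% were called, 15% higher and 16.2% lower. Without pH 7.4 replicate 5 the limma calls over all genes came to 3551. CA9 entered the test only through its pH 7.4 libraries, so its place in that count is no support for a change.

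For CA12, the pH 6.5 libraries of SiHa (replicates 1, 4, 5, 6 and 7) held 523, 624, 462, 536 and 1019.6 normalised counts, against 76.4, 133 and 106 in the pH 7.4 libraries 1, 4 and 5. Every pH 6.5 library lay above every pH 7.4 library, as groups did without overlap for 35.5% of all genes tested, and replicate 7 was the highest. The 2 pH 7.4 libraries set apart held 81.9 and 125, inside the range of the others at pH 7.4. The log2 change was 2.56 ± 0.25 (SE; limma, Benjamini-Hochberg adjusted p = 9.8e-05), a 6.03-fold higher mean at pH 6.5, and with all libraries as labelled, where limma called 40.8% of all genes, it was 2.56 with an adjusted p of 1.2e-05.

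For CA2, the pH 6.5 libraries of SiHa held 36.4, 4.20, 16.1, 12.9 and 7.69 normalised counts, against 123, 82.4 and 130 in the pH 7.4 libraries. Every pH 6.5 library lay below every pH 7.4 library, and replicate 4 held only 3 reads. The pH 7.4 libraries set apart held 192 and 80.1, also above the pH 6.5 libraries. On the log2(normalised count + 1) scale, which understates the change of low genes, CA2 fell by 3.07 ± 0.53 (limma adjusted p = 0.00186). Leaving out any 1 library moved this change between -3.44 and -2.73, and limma called it each time.

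For CA9, the pH 6.5 libraries of SiHa held 6.74, 2.80, 2.69, 2.58 and 2.56 normalised counts, against 6.11, 19.9 and 13.5 in the pH 7.4 libraries. These are 2 to 5 reads at pH 6.5 and 6 to 21 reads at pH 7.4, and replicate 1 stood at nearly the same level in both groups, so the groups overlapped. The limma log2 change was -1.61 ± 0.46 (adjusted p = 0.0221). It rested on single libraries: without pH 7.4 replicate 5 it was -1.52 (adjusted p = 0.0831), and without pH 7.4 replicate 4 CA9 did not reach the level for testing. With the set-apart libraries, which held 10.5 and 1.67, it was -1.12 (limma adjusted p = 0.113).

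For CA13, the pH 6.5 libraries of SiHa held 71.4, 99.3, 126, 103 and 58.1 normalised counts, against 116, 142 and 121 in the pH 7.4 libraries. The ranges overlapped through pH 6.5 replicate 5, and the limma log2 change of -0.51 ± 0.25 did not pass (adjusted p = 0.137). The set-apart libraries held 93.6 and 167. Of 6 squamous markers tested in SiHa 4 were called lower, beside 16.2% of all genes called lower. TP63 entered this test only through its pH 7.4 libraries, so a call of it is no support for a change. The squamous list summed to 1319 to 4705 at pH 6.5 and to 5876 to 7202 at pH 7.4. SERPINB5 alone held 943 to 2441 at pH 6.5 and 4535 to 5993 at pH 7.4, so the sum largely follows this gene. Of 7 mesenchymal markers tested 2 were called higher and 1 lower, beside 15% and 16.2% of all genes. VIM and COL1A2 entered this test only through their pH 7.4 libraries, so any calls of them are no support for a change. The mesenchymal list summed to 4204 to 6861 at pH 6.5 and to 3937 to 5127 at pH 7.4. The part of both lists in the carbonic anhydrase values was not tested.

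In HCT116 at pH 6.5, the membrane enzyme CA12 and the cytosolic enzyme CA2 were both higher, while CA9 and CA13 did not pass the test. Of the 4 genes, 2 were called higher by limma and none lower, beside 20.2% of all 18885 genes tested in this line, 9.11% higher. Only 2 libraries at pH 6.5 stood behind these values: without pH 6.5 replicate 1 limma called 0 of the 4 genes and 2198 genes in all, and without pH 6.5 replicate 3 or pH 7.4 replicate 7 it called 1 of the 4. In 1 fit over all lines limma called neither CA2 nor CA12 in HCT116, and with no filter on low values it did not call CA2.

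For CA12, the HCT116 pH 6.5 libraries 1 and 3 held 369 and 278 normalised counts, against 122, 124, 165, 172 and 220.0 in the pH 7.4 libraries 1, 3, 5, 6 and 7. Both pH 6.5 libraries lay above all 5 at pH 7.4, beside 36.2% of all genes without overlap, with a log2 change of 1.03 ± 0.25 (limma adjusted p = 0.0131). Without pH 6.5 replicate 1 the change was 0.83 and no longer passed (adjusted p = 0.148). The set-apart pH 6.5 libraries 5, 6 and 7 held 229.5, 555 and 962; with them the limma log2 change was 1.41 (adjusted p = 0.0298, beside 18.2% of all genes called). The values of libraries 6 and 7, which carried SiHa genes at 101% and 104%, lay in the range of CA12 in SiHa at pH 6.5.

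For CA2, the HCT116 pH 6.5 libraries held 1489 and 1376 normalised counts, against 682, 1047, 1152, 741 and 765 in the pH 7.4 libraries. Both lay above all 5, and the log2 change was 0.74 ± 0.20 (limma adjusted p = 0.0243). The call was lost without pH 6.5 replicate 1 (adjusted p = 0.161), without pH 6.5 replicate 3 (0.0847) and without pH 7.4 replicate 7 (0.0565). The set-apart libraries 5, 6 and 7 held 888, 44.7 and 26.9, so with all libraries as labelled the direction turned, to -1.53 ± 1.12 (limma adjusted p = 0.317).

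CA9 split the HCT116 control group. The pH 6.5 libraries held 4.58 and 3.42 normalised counts, which is 4 and 3 reads, against 4.24, 8.71, 51.3, 49.1 and 66.5 in the pH 7.4 libraries. The pH 7.4 replicates 1 and 3, the numbers that the pH 6.5 libraries also bear, stood at 4 and 10 reads, near the pH 6.5 level, and replicates 5, 6 and 7 at 40 to 58 reads. The groups overlapped, and the limma log2 change of -2.31 ± 0.88 did not pass (adjusted p = 0.0855). It passed without pH 7.4 replicate 1 (-2.87, adjusted p = 0.0104), with all libraries as labelled (-2.29, adjusted p = 0.0485), in 1 fit over all lines (-2.31, adjusted p = 0.0488) and with DESeq2 (-3.15, adjusted p = 0.00481). With the replicate number as a block it shrank to -0.52 (limma adjusted p = 0.673), though the numbers were not taken as pairs. CA9 entered the test only through its pH 7.4 libraries, so these calls are no support for a change. The set-apart libraries held 3.94, 5.40 and 3.17, at the level of the other 2 libraries at pH 6.5.

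For CA13, the HCT116 pH 6.5 libraries held 374 and 362 normalised counts, against 453, 383, 360.4, 400.4 and 487 in the pH 7.4 libraries. Both lay inside the pH 7.4 range, and the limma log2 change was -0.17 ± 0.17 (adjusted p = 0.505). The set-apart libraries held 173, 68.6 and 55.4; SiHa at pH 6.5 held CA13 at 58.1 to 126. The marker counts of this line stand beside 20.2% of all genes called, with 9.11% of all genes called higher. Of 6 squamous markers tested 4 were called higher and 1 lower, with sums of 5299 to 7830 at pH 6.5 and 3150 to 6607 at pH 7.4, and the colon list summed to 1835 to 1967 at pH 6.5 and 915 to 1384 at pH 7.4. Of 5 colon markers tested 1 was called higher, KRT20 (917 to 990.1 at pH 6.5 and 176 to 358 at pH 7.4), and 2 lower, VIL1 (1.14 to 2.29 at pH 6.5 and 24.6 to 104 at pH 7.4) and CDH17 (1.14 to 3.42 at pH 6.5 and 7.37 to 13.1 at pH 7.4). Of 6 mesenchymal markers tested 2 were called higher, ZEB1 (140 to 192 at pH 6.5 and 20.1 to 64.5 at pH 7.4) and VIM, with sums of 2216 to 2698 at pH 6.5 and 1910.1 to 4234 at pH 7.4. VIL1 and CDH17 entered the test only through their pH 7.4 libraries. VIM and the squamous markers KRT6A and DSG3 entered it only through their pH 6.5 libraries. Any calls of these genes, also within the counts above, are thus no support for a change. The part of these markers in the carbonic anhydrase values was not tested.

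In FaDu at pH 6.5, CA2 stood slightly above, and CA9 and CA13 below, the level of the 1 library left at pH 7.4, and none of these passed the test. By limma 0 of the 3 genes tested were called, beside 7.36% of all 19170 genes; CA13 alone had an unadjusted p under 0.05, and edgeR and DESeq2 also called 0. With 1 library at pH 7.4, that library is assumed to vary like those at pH 6.5. Of all genes tested in FaDu 57.1% had groups that did not overlap. Leaving out pH 6.5 replicates 1, 2, 3, 4 and 5 in turn, limma called 7039, 384, 74, 66 and 340 genes.

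For CA2, the FaDu pH 6.5 libraries 1 to 5 held 2186, 1759.8, 1816, 1873 and 1666 normalised counts, against 1505 at pH 7.4. All 5 lay above it, with a limma log2 change of 0.30 ± 0.16 (adjusted p = 0.262). For CA13, the pH 6.5 libraries held 126, 56.9, 57.7, 43.9 and 57.4, against 161 at pH 7.4, with a log2 change of -1.33 ± 0.51 (limma adjusted p = 0.142). Replicate 1 was well above the other 4, and without it CA13 passed, at -1.57 (limma adjusted p = 0.00327), as it did in 1 fit over all lines (-1.33, adjusted p = 0.0332).

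For CA9, the FaDu pH 6.5 libraries held 31.2, 5.55, 8.75, 26.1 and 6.63 normalised counts, against 45.0 at pH 7.4. Replicates 1 and 4 were high and the other 3 low, all under the pH 7.4 library, and the limma log2 change of -1.78 ± 0.93 did not pass (adjusted p = 0.254). For CA12, the pH 6.5 libraries held 15.6, 3.47, 4.37, 13.6 and 8.84, against 6.59 at pH 7.4; the means were under the level for testing, and replicates 1 and 4 were again the highest. The set-apart pH 7.4 libraries 2 to 5 held CA12 at 145, 59.0, 57.8 and 115 and CA13 at 550.1, 257, 334 and 412, above the other FaDu libraries. Their order followed their share of HCT116 genes (80.4%, 30.6%, 42.7% and 61.9%) for CA13 but not between libraries 3 and 4 for CA12. Library 2 held more CA13 than any kept HCT116 library, which held at most 487. The part of HCT116 reads in these values was not tested. Libraries 2 to 5 held CA2 at 910.0, 1079.9, 1108 and 1023 and CA9 at 9.58, 4.44, 9.64 and 2.96. As labelled, FaDu gave log2 changes of 0.74 for CA2, 0.39 for CA9, -2.59 for CA12 and -2.29 for CA13, of which limma called CA2, CA12 and CA13 (adjusted p = 0.00201, 0.0169 and 0.000979), beside 46.3% of all genes.

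**Figure D2:**
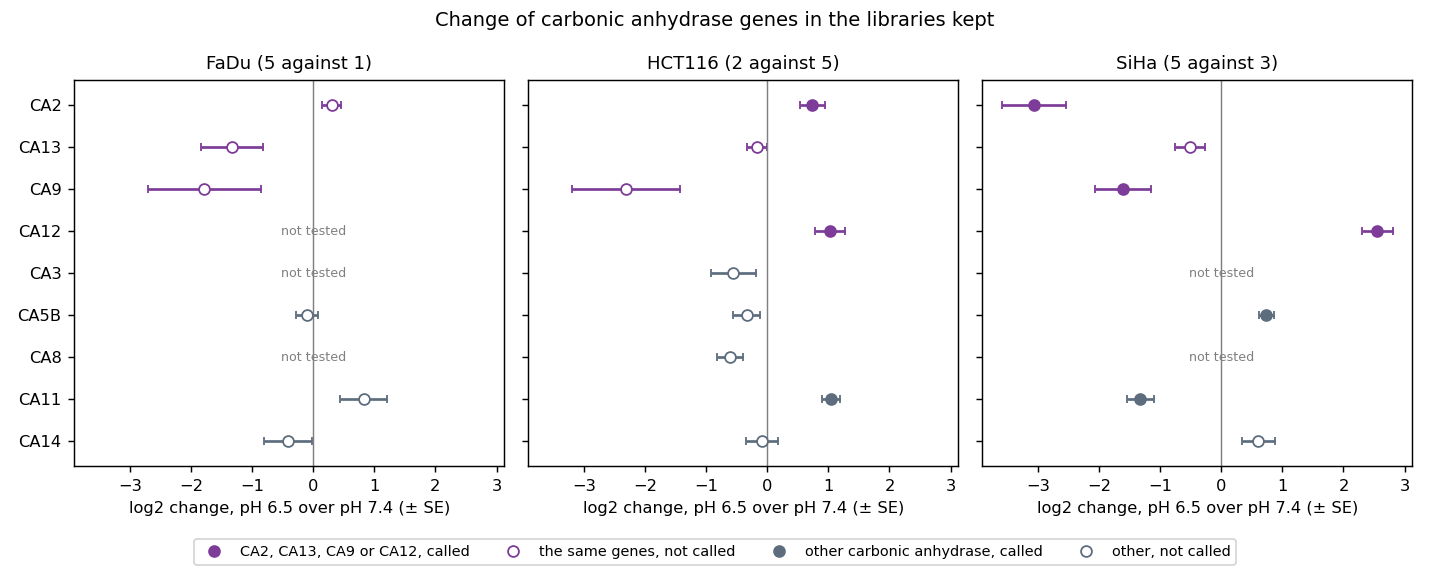
Log2 change at pH 6.5 over pH 7.4 (x axis, ± SE, limma) of CA2, CA13, CA9 and CA12 and of 5 other carbonic anhydrase genes (y axis) in the libraries kept of FaDu, HCT116 and SiHa; filled dots are called at an adjusted p under 0.05. CA12 is filled and to the right of 0 in HCT116 and SiHa, and CA2 is filled to the right in HCT116 (0.74) and to the left in SiHa (-3.07).

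The response of CA2 and CA12 to pH differed between the lines. In 1 fit over the 21 kept libraries, the limma F-test of this difference called 2 of the 4 genes, CA2 (adjusted p = 0.000103) and CA12 (adjusted p = 0.0171), beside 33.1% of 22127 genes; the pairwise contrasts called 24.5% for SiHa minus HCT116 and 14.9% for SiHa minus FaDu. The CA2 change in SiHa was 3.80 ± 0.58 log2 units below that in HCT116 (a difference of -3.80; limma adjusted p = 8.3e-05) and 3.37 ± 0.69 below that in FaDu (-3.37; adjusted p = 0.00252). The CA12 change in SiHa was above that in FaDu by 2.32 ± 0.66 (limma adjusted p = 0.0215) and above that in HCT116 by 1.53 ± 0.56 (adjusted p = 0.0498). The last value sat at the threshold: it was lost in 11 of 20 fits that left out 1 library, with a pseudocount of 0.5, with no filter and with all libraries as labelled (1.16, limma adjusted p = 0.282). In FaDu itself CA12 was under the level for testing, at 5 to 15 reads at pH 6.5 and 6 reads at pH 7.4. CA12 entered this fit only through HCT116 and SiHa, and the log2(normalised count + 1) scale understates changes of low genes. The difference from FaDu rested on the single FaDu library at pH 7.4. It was 2.11 (limma adjusted p = 0.0508) without SiHa pH 7.4 replicate 1, where the F-test called 1 of the 4 genes, and edgeR did not call it (2.18, adjusted p = 0.172). With all libraries as labelled, the CA2 difference between SiHa and HCT116 was -1.61 (limma adjusted p = 0.289), with the 3 libraries that carried SiHa genes counted as HCT116. As labelled, limma also called 3 differences that it did not call in the libraries kept, all from FaDu: CA12 in HCT116 (4.0, adjusted p = 0.000407), CA9 in HCT116 (-2.67, 0.0424) and CA13 in SiHa (1.79, 0.0226). For CA9 and CA13 a difference between lines was not detected in the libraries kept (limma F-test adjusted p = 0.854 and 0.172), though without FaDu pH 6.5 replicate 1 the CA13 change was above that in FaDu by 1.40 in HCT116 and by 1.06 in SiHa (adjusted p = 0.0129 and 0.0453).

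Set side by side, the surface and the cytosolic genes stood apart by pH in SiHa, while in HCT116 their ratio overlapped between the pH groups. The ratio of CA9 plus CA12 to CA2 plus CA13, per kb, is a description without a test. In SiHa it was 2.15, 3.48, 1.74, 2.48 and 8.15 in the pH 6.5 libraries, against 0.153, 0.387 and 0.232 in the pH 7.4 libraries, so that the surface genes exceeded the cytosolic ones in all 5 libraries at pH 6.5 and in none at pH 7.4. In HCT116 it was 0.0625 and 0.0508 at pH 6.5 and between 0.0347 and 0.131 at pH 7.4, with overlap. In FaDu it was between 0.00382 and 0.0166 at pH 6.5 and 0.0314 in the pH 7.4 library. On the log2 scale the SiHa ratio averaged 1.61 ± 0.87 at pH 6.5 and -2.06 ± 0.67 at pH 7.4 per kb (SD, n = 5 and 3). Without division by length the SiHa averages were 2.56 ± 0.85 at pH 6.5 and -1.05 ± 0.49 at pH 7.4. The set-apart HCT116 pH 6.5 libraries 5, 6 and 7 had ratios of 0.0679, 2.04 and 5.03, the last 2 within the SiHa pH 6.5 range, and the set-apart SiHa pH 7.4 libraries had 0.141 and 0.227. In SiHa at pH 6.5 CA12 made up most of the surface sum, so there the ratio follows the CA12 and CA2 values already given, while in FaDu CA9 stood above CA12 per kb at both pH values.

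**Figure D3:**
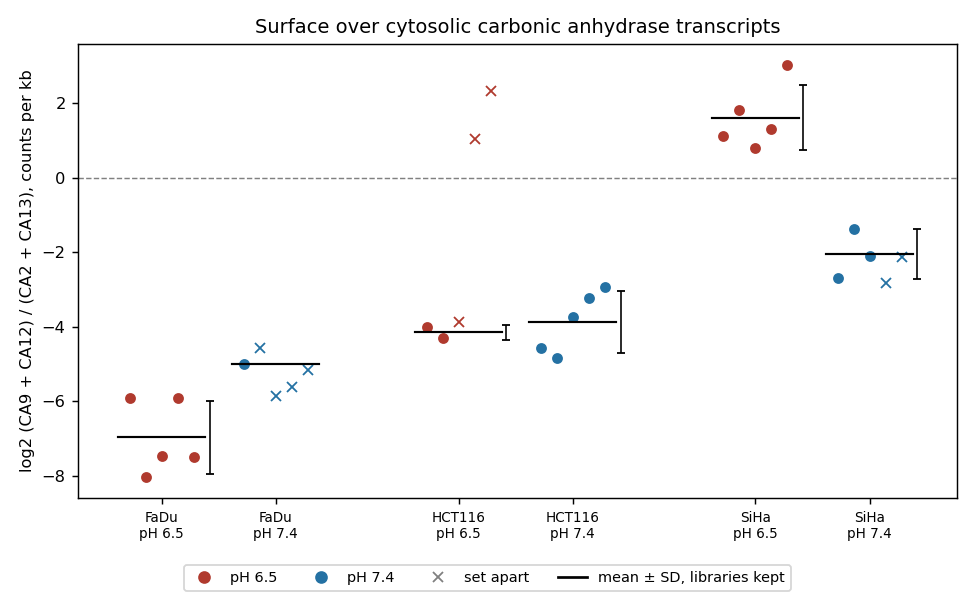
Log2 ratio of the surface genes CA9 and CA12 to the cytosolic genes CA2 and CA13 in counts per kb (y axis) in each of the 30 libraries by line and pH, with dots for libraries kept, crosses for those set apart and lines and bars for the mean ± SD of the libraries kept. The 5 SiHa libraries at pH 6.5 lie above 0 and the 3 kept at pH 7.4 below it, while the HCT116 groups overlap.

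Of the 11 other carbonic anhydrase genes, CA5B, CA11 and CA14 passed the level for testing in all 3 lines and CA3 and CA8 in HCT116 alone; CA1, CA4, CA5A, CA6, CA7 and CA10 averaged under 10 in every group. CA11, which encodes a secreted relative without enzyme activity, changed in opposite directions in 2 lines in the libraries kept. In HCT116 it held 1270.4 and 1264 normalised counts at pH 6.5, against 544 to 690.1 at pH 7.4, a log2 change of 1.04 ± 0.14 (limma adjusted p = 0.000367). The set-apart libraries 5, 6 and 7 held 711, 372 and 270.1, and with all libraries as labelled the call was lost (0.08, limma adjusted p = 0.895). In SiHa it held 262 to 542 at pH 6.5, against 819 to 1130.4 at pH 7.4, a change of -1.33 ± 0.22 (limma adjusted p = 0.00159). The CA11 change in SiHa differed from that in HCT116 by -2.37 ± 0.34 and from that in FaDu by -2.15 ± 0.40 (limma adjusted p = 3.8e-05 and 0.00118). In the libraries kept, CA11 and CA2 thus had the same signs in HCT116 and in SiHa.

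CA5B, a mitochondrial enzyme, rose in SiHa and was not called in HCT116 or FaDu. In SiHa it held 691, 859, 819, 801 and 889.8 normalised counts at pH 6.5, against 560.1, 482 and 424 at pH 7.4, a log2 change of 0.74 ± 0.12 (limma adjusted p = 0.00168). The ranges did not overlap, and the change in SiHa exceeded that in HCT116 by 1.07 ± 0.22 and that in FaDu by 0.83 ± 0.27 (limma adjusted p = 0.0016 and 0.0387). In HCT116 its log2 change in the libraries kept was -0.34. The set-apart libraries 5, 6 and 7 held 432, 950.2 and 748, and as labelled the direction turned, to 0.97 (limma adjusted p = 0.187). CA5B overlaps 4 annotated genes, among them CA5BP1 on the same strand, and reads shared with these were not examined. The membrane enzyme CA14 averaged 36.7 ± 9.37 at pH 6.5 and 23.4 ± 3.96 at pH 7.4 in SiHa and did not pass (0.60 ± 0.27, limma adjusted p = 0.110); with all libraries as labelled it did (0.69, adjusted p = 0.0273). CA8, a catalytically inactive relative, was read in HCT116 at 98.8 ± 10.7 at pH 6.5 and 153 ± 21.2 at pH 7.4 (-0.61 ± 0.21, limma adjusted p = 0.0598), and was at most 1.10 in the kept libraries of FaDu and SiHa. In the set-apart FaDu pH 7.4 libraries CA8 stood at 40.4, 24.1, 30.4 and 67.1. CA3, a cytosolic enzyme best known from muscle, averaged 13.7 ± 1.58 at pH 6.5 and 21.3 ± 6.31 at pH 7.4 in HCT116 and did not pass (limma adjusted p = 0.313).

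Carbonic anhydrases work beside carriers of bicarbonate, protons and lactate, and of 22 such genes 15 or 16 were tested per line. In SiHa 3 of 15 were called lower and none higher, beside 16.2% of all genes called lower there. ATP6V0A4, a subunit of the vacuolar proton pump, stood at 2.41 at pH 6.5 and 27.0 at pH 7.4 (limma log2 change -2.97). It entered the test only through its pH 7.4 libraries. The bicarbonate carrier SLC4A8 stood at 54.0 and 103 (-0.99), and the anion exchanger SLC4A2 at 3385 and 4511 (-0.42). In HCT116 4 of 16 were called lower and none higher, beside 20.2% of all genes called in either direction, among them the exchanger SLC9A2 (88.5 at pH 6.5 and 298 at pH 7.4, -1.76) and the lactate carriers SLC16A3 (5432 and 8871, -0.71) and SLC16A1 (5425 and 7507, -0.47). In FaDu SLC9A2 was called higher (169 at pH 6.5 and 76.9 at pH 7.4, 1.11) and SLC4A2 lower (4034 and 5950.2, -0.56), 2 of 16 beside 7.36% of all genes, with 1 library at pH 7.4. As labelled, limma called 2 higher and 7 lower of 17 in FaDu, 3 lower of 16 in HCT116 and 2 lower of 15 in SiHa, beside 46.3%, 18.2% and 40.8% of all genes. The median log2 change of these genes was -0.05 in FaDu, -0.12 in HCT116 and -0.00238 in SiHa, against -0.01 over all genes in each line.

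The hypoxia-inducible factor pathway, through which CA9 is known to be switched on, was followed with 30 genes, all tested in every line. In FaDu 4 were called lower and none higher, beside 7.36% of all genes and resting on 1 library at pH 7.4. They were DDIT4, a brake on mTOR signalling (2283 at pH 6.5 and 10094 at pH 7.4, limma log2 change -2.16), the vessel growth factor VEGFA (-2.16), the stress gene NDRG1 (-1.09) and the glucose carrier SLC2A1 (-0.96). In HCT116 3 were called lower and none higher, beside 20.2% of all genes: SLC2A1 (-1.05) and the oxygen-regulated subunits HIF1A (-0.54) and EPAS1 (-0.53). In SiHa 10 were called lower and 3 higher, beside 31.2% of all genes, and the named ones were DDIT4 (-1.78), the peptide hormone gene ADM (-1.70), MXI1, an antagonist of MYC (-1.13), and the lactate dehydrogenase gene LDHA (-0.88). The median log2 change of the list was -0.21 in FaDu, -0.09 in HCT116 and -0.08 in SiHa, beside -0.01 over all genes. As labelled, limma called 5 higher and 12 lower in FaDu, 3 lower in HCT116, and 5 higher and 10 lower in SiHa. This stands beside 46.3%, 18.2% and 40.8% of all genes called in these lines. CA9 itself had a negative log2 change in all 3 lines in the libraries kept, on few reads, and a positive one in FaDu as labelled.

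Of 10 regulators linked to these genes in other systems, 7 or 8 were tested per line. HNF4A, a nuclear receptor of intestinal and liver cells, stood at 11.4 at pH 6.5 and 621 at pH 7.4 in HCT116 (limma log2 change -5.70, adjusted p = 2.1e-08). In HCT116 the retinoid receptor RXRA (-0.54) and the factor SP1 (-0.47) were also called lower. In SiHa RXRA was called lower (-0.27), and in FaDu SP3 (-0.73), on 1 library at pH 7.4. That is 3 of 8 in HCT116, 1 of 7 in SiHa and 1 of 7 in FaDu, beside 20.2%, 31.2% and 7.36% of all genes, and none was called higher in the libraries kept. As labelled, limma called 3 higher and 6 lower of 9 in FaDu, 3 lower of 8 in HCT116 and 5 lower of 8 in SiHa. The shares over all genes were then 46.3%, 18.2% and 40.8%.

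Over the 21 kept libraries, the genes whose log2 values ran closest to each member were ranked by Pearson's r among 13964 genes, as a description: the libraries of a line share their origin, so differences between lines weigh heavily in r. For CA2 these were the stress kinase gene MAPK13 (r = 0.985), the receptor gene GPR160 (0.985) and the ubiquitin ligase adaptor KLHL13 (0.984). KLHL13 averaged 528 at pH 6.5 and 379 at pH 7.4 in FaDu, and 0.800 at pH 6.5 and 12.1 at pH 7.4 in SiHa. For CA12 they were BTG3, an antiproliferative gene (0.975), the sphingolipid enzyme gene KDSR (0.971) and the tRNA thiolation gene CTU2 (0.964). BTG3 averaged 4627 at pH 6.5 and 2509 at pH 7.4 in SiHa, and 704 at pH 6.5 and 536 at pH 7.4 in FaDu. For CA13 they were GDPD1 (0.968), RPUSD4 (0.962) and USP3 (0.960), of which GDPD1, a lipid phosphodiesterase gene, was at 416 at pH 6.5 and 418 at pH 7.4 in HCT116. CA9, with few reads, had lower values of r, for the sphingolipid gene SAMD8 (0.845), the polarity gene PARD6B (0.821) and the RNA-binding gene CELF1 (0.809).

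Neighbouring transcripts could share reads with 3 of the genes, since the strand setting of the counting is not given in the sources used here. ARHGEF39 overlaps CA9 on the opposite strand with 0 shared exon bases, and stood at 392 at pH 6.5 and 309 at pH 7.4 in FaDu, 611 and 407 in HCT116, and 461 and 257 in SiHa. CA9 had the opposite sign in each line in the libraries kept. CA3-AS1, with 0 exon bases shared with CA2, was at most 27.6 in any kept library. AC011773.3 shares 191 exon bases with CA13 and was at most 5.70 in any library, and no overlapping gene was annotated for CA12.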

How the data were processed

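The authors deposited 1 table of normalised read counts (unit signal) for 38122 Ensembl genes in 30 libraries. The submitters' processing notes list the build GRCh37 and the tools STAR 2.6.1d, Trimmomatic 0.38, FastQC, bcl2fastq 2.20 and DESeq2 1.22.2; for the read counter, the strand setting and the annotation they hold no entry (not given in the sources used here). All deposited values (100% within 0.01 of a step) were whole multiples of 1 read, so whole reads were recovered for edgeR and DESeq2. Symbols were matched for 35466 identifiers, and exon lengths and overlaps came from a gene annotation on GRCh38, without coordinates.

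In each line limma 3.58.1 (R 4.3.3) with an intensity trend compared log2(normalised count + 1) between pH groups, 2-sided, for genes averaging 10 or more in the higher group, with Benjamini-Hochberg adjustment over all genes tested and calls under 0.05. A fit over 21 libraries tested whether the pH change differed between lines. Alternatives were all libraries as labelled, pseudocounts of 0.5 and 5, no filter, TMM scaling, edgeR 4.0.16, DESeq2 1.42.0, 1 fit over all lines, leaving out each library, and a replicate block. The fits were also run on simulated data with the same spread setting for every gene. No low gene was changed there, so that run does not cover genes as low as CA9. Python 3.11.15 with numpy 2.4.6, pandas 2.3.3 and matplotlib 3.10.9 was used.

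Members, gene lists, alternatives and the libraries set apart were chosen with earlier results of these data known. Named genes were the 4 members, other carbonic anhydrases averaging at least 10 in any group, up to 4 called genes per list and line with the largest change, and the 3 genes with the highest r per member. 1 gene that this rule names is not reported here. A gene was restricted to a line if all its libraries held 10 or more counts per M reads and those of the other lines no more than 1% of that. Depth was 21.0 to 55.7 M reads. The limit for a count of 0 covers counting error alone, as PCR copies of 1 molecule could not be told apart.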

Additional observations from a re-analysis of the deposited data

Results flagged for a closer look

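Of 12 groups with 4 to 10 libraries among the 4 genes, 2 held a library far from the others, and chance gives about 1 in 20 such groups. CA9 in SiHa at pH 6.5 was highest in replicate 1, at 6.74 normalised counts or 5 reads, with the other 4 libraries between 2.56 and 2.80. CA13 in FaDu at pH 6.5 was highest in replicate 1, at 126, with the other 4 between 43.9 and 57.7.

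The pH change of 4 carbonic anhydrase genes differed between lines by limma. For CA2 the SiHa change lay below the FaDu change (difference -3.37 log2 units) and below the HCT116 change (-3.80). For CA11 these differences were -2.15 and -2.37. For CA12 the SiHa change lay above the FaDu change by 2.32 and above the HCT116 change by 1.53, and for CA5B by 0.83 and 1.07. The differences from FaDu rest on 1 FaDu library at pH 7.4, and CA12 was under the level for testing in FaDu.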

How the results depend on the processing

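Values are log2 changes or counts of calls. With all libraries as labelled, FaDu gave CA2 0.74, CA12 -2.59 and CA13 -2.29, the 3 of the 4 genes called, and a reversed CA9 (0.39, not called), with 9115 genes called in all. HCT116 as labelled reversed CA2 (-1.53) and called CA9 (-2.29), and SiHa lost CA9 (-1.12). DESeq2 called 2659 genes in FaDu and CA9 in HCT116 (-3.15). With no filter HCT116 lost CA2 (0.74, limma adjusted p = 0.0506), leaving 1 called. In 1 fit over all lines FaDu CA13 was called (-1.33, 1 gene, 2438 in all), HCT116 lost CA2 (0.74) and CA12 (1.03) and called CA9 (-2.31), 1 in all, and SiHa lost CA9 (-1.61). Leaving out 1 library, calls among these genes ranged over 0 to 1 in FaDu, 0 to 3 in HCT116, 2 to 3 in SiHa, and 1 to 3 for the difference between lines. All calls ranged over 66 to 7039 in FaDu, 2198 to 5150 in HCT116 and 3551 to 6473 in SiHa. Changes ranged over -1.57 to -1.20 (CA13, FaDu), 0.65 to 0.84 (CA2, HCT116), 0.83 to 1.23 (CA12, HCT116), -2.87 to -1.94 (CA9, HCT116) and -2.04 to -1.52 (CA9, SiHa). Reversed differences between lines were CA2 in HCT116 minus FaDu as labelled (-2.27), CA13 in SiHa minus HCT116 as labelled (0.90), and CA9 in SiHa minus FaDu as labelled (-1.50), by edgeR (-0.42) and on leaving out a library (-0.25 to 0.53). FaDu could not be fitted without its 1 library at pH 7.4. Other causes of these moves were not tested.

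Replicate numbers were not taken as pairs, since the labels give them no meaning and not every pair passed 0.1: deviations of same-numbered libraries correlated at 0.0553 and 0.173 in HCT116 and at 0.0478 to 0.316 in SiHa, where every library with a partner correlated best with its own number, a hint from the data. With the replicate block, HCT116 CA9 was -0.52 (limma adjusted p = 0.673), SiHa CA9 lost its call (-1.44), and HCT116 and SiHa each had 2 of the 4 genes called. As labelled with the block (chosen after seeing the data for HCT116 and SiHa), FaDu gave CA2 0.74, CA13 -2.29 and, not called, CA9 0.39, with 3 of the 4 genes called (CA12 the third) and 8851 in all; HCT116 gave CA2 -1.53, with 1 called and 1407 in all; SiHa gave CA9 -1.12. Depth limits CA9 most, at 2 to 58 reads per kept library.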
